A study of Mus musculus with 6 samples.

Results

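The clustered histone genes encode the H1, H2A, H2B, H3 and H4 proteins that package DNA, and they were followed here in livers of Fah-deficient mice kept on NTBC or taken off it. Members were the genes of the array annotation whose symbol carries the prefix H1f, H2ac, H2bc, H3c or H4c and a number, and 66 of 23981 annotated gene symbols did so. Of these, 29 had a probe set that lists no other gene, and the other 37 appear only on probe sets that list several genes. The annotation assigned 68 of 34472 probe sets to members. The 29 genes comprised 8 of H1, 6 of H2A, 8 of H2B, 7 of H4 and none of H3. H3 could thus be read only from probe sets that list several genes, called shared below. The annotation does not show whether the probes of such a set match every gene it lists.

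All 6 samples were livers of male mice of strain C57Bl/6J aged 12 weeks that carry a point mutation at the end of exon 8 of Fah (line FAH5981SB), so the gene for the last enzyme of tyrosine breakdown is disrupted in every cell of both groups. The continuous group (3 arrays) received NTBC, which blocks tyrosine breakdown upstream of Fah, at 8 mg/l in drinking water with 3% dextrose. The withdrawal group (3 arrays) had the same treatment until 11 weeks of age and then 7 days without NTBC. Both were fed a chow low in tyrosine and phenylalanine. The arrays are written C1 to C3 (continuous) and W1 to W3 (withdrawal) after their replicate numbers. Replicates are labelled biological, but no animal is named, and a p-value here reflects only how far these 6 samples scatter. Median log2 signals of the arrays lay between 5.21 and 5.44 and lower quartiles between 4.03 and 4.26. Alb, the main hepatocyte product, had log2 signals from 14.11 to 14.24 over the 6 arrays.

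Most histone proteins are made during S phase from genes that lie in clusters and lack introns. Their mRNAs end in a stem-loop in place of a poly(A) tail. The stem-loop is bound by SLBP, and the mRNAs are destroyed when DNA synthesis stops. H2A, H2B, H3 and H4 form the nucleosome core and H1 binds the linker DNA. In the adult liver few hepatocytes divide, and some clustered genes, H1f2 among them, also yield polyadenylated transcripts in differentiated cells. Copies within a class are nearly identical, and transcripts of one copy may bind probes of another, so the value of any single gene is uncertain. Signals of different probe sets do not rank the genes by abundance.

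The promoters of 4 members are shown because these genes carry the main contrast among single genes: H4c9 and H4c8 had the largest rises, H4c12 is a sister H4 gene that did not pass, and H1f2 was the H1 member that rose. Each run of 300 bases spans 250 bases before to 50 after the RefSeq gene start (GRCm38.p6), 5′ to 3′ on the gene's strand. They are chr13:22041313-22041612 (minus strand) for H4c9, chr13:23530794-23531093 (plus) for H4c8, chr13:21750504-21750803 (minus) for H4c12 and chr13:23738557-23738856 (plus) for H1f2. Capitals mark exact matches to the letters of the TATA box (TATAAA), the CCAAT box (CCAAT) and the octamer (ATTTGCAT), searched on both strands. None of the 3 contains another. Near variants were not marked, and distance to the gene start was not a criterion. A match, such as the distant one in H4c9, therefore need not be the box in use.
H4c9: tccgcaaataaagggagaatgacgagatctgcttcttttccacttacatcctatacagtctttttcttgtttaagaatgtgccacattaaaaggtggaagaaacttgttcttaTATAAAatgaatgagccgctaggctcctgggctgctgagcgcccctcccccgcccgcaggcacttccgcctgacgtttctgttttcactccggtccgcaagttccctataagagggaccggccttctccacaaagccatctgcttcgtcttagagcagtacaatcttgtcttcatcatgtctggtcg
H4c8: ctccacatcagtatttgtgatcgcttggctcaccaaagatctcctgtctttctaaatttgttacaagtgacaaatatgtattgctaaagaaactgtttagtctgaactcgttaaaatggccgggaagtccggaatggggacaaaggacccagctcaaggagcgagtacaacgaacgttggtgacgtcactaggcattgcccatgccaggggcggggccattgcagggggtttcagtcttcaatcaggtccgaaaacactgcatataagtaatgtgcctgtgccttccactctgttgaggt
H4c12: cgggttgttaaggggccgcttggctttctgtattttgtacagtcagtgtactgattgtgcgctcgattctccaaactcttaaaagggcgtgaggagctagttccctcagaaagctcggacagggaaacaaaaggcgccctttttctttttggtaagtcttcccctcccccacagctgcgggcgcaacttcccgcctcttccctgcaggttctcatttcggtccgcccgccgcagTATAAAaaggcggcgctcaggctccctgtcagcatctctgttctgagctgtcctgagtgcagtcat
H1f2: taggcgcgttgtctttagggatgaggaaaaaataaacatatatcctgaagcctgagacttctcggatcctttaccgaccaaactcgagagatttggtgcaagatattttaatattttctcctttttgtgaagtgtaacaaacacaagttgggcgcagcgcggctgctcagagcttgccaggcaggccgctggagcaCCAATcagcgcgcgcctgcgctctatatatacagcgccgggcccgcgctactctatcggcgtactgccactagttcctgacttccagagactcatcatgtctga
In these windows H4c9 held TATAAA from position -137, H4c12 held it from -16 and H1f2 held CCAAT from -54, where 0 is the first base of the gene. The H4c8 window held none of the 3 motifs. Across the RefSeq table TATAAA occurred in 13.6% of 32851 promoters and in 8 of 11 H4 promoters. CCAAT occurred in 37.4% of all promoters, in every one of the 17 H2A, 15 H2B and 10 H3 promoters, and in 3 of 11 H4 promoters. The octamer, known from H2B genes, was in 1.74% of all promoters, in 7 of 15 H2B and 6 of 17 H2A promoters, and in 0 of the 11 H4, 10 H3 and 10 H1 promoters. Of the 5 genes that rose, H4c1 and H4c9 held TATAAA, H4c1 and H1f2 held CCAAT and none held the octamer.

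After NTBC withdrawal 5 of the 29 genes with a probe set of their own rose and none fell (17.2% higher, where 9.40% of all probe sets passed, 6.21% higher and 3.20% lower). The test was limma across all probe sets, two-sided, with a Benjamini-Hochberg adjusted p of 0.05 as threshold. At an unadjusted p of 0.05 the count was 11 of 29 in either direction, where 23.5% of all probe sets passed. The count was 3 when C2, W1 or W2 was left out. H4 members made up 4 of the 5 (H4c9, H4c8, H4c2 and H4c1), and H1f2 was the fifth. H2A and H2B had 0 of 6 and 0 of 8 past the threshold, with 2 members each at an unadjusted p of 0.05, which is near the 23.5% of all probe sets. The median log2 change was 0.91 for H4, 0.06 for H2A, 0.06 for H2B and -0.04 for H1, beside -0.08 over all probe sets and 0.17 over the 29 genes. In 9 genes all 3 withdrawal arrays lay above all 3 continuous arrays, and in 3 genes below, where 13.9% and 13.7% of all probe sets did so. In whole liver more RNA per cell and more cells of a type that carry it cannot be told apart.

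**Figure D1:**
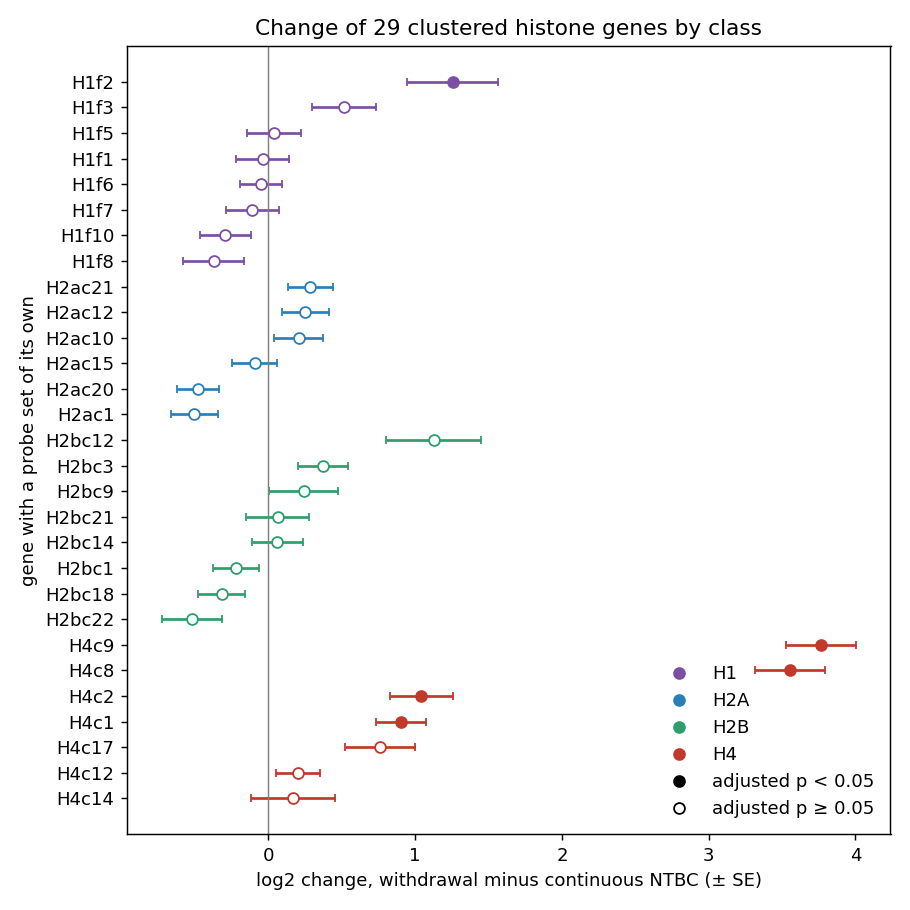
Log2 change (withdrawal minus continuous NTBC, x axis) of the 29 genes with a probe set of their own (y axis), coloured by class, with bars for the standard error of the limma fit (3 arrays per group). Filled points passed an adjusted p of 0.05; H4c9 (3.76) and H4c8 (3.55) lie apart from the other 27 genes, which range from -0.52 to 1.26.

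Of the core histones, H4 had the largest changes among single genes. H4c9 had log2 signals of 5.24, 4.70 and 5.52 on the continuous arrays and 9.13, 9.11 and 8.51 after withdrawal. Every withdrawal array was far above every continuous one. The log2 change was 3.76 (SE 0.24, 13.6-fold, limma adjusted p = 1.65e-05). H4c8 read 3.48, 3.61 and 4.03 with NTBC and 7.61, 7.43 and 6.74 without it. Its continuous signals all lay under the lower quartile of their arrays, so the size of the 11.7-fold rise (log2 change 3.55, SE 0.24, adjusted p = 2.31e-05) is uncertain. With signals under the quartile raised to it the fold was 8.32. No background level is given in the table.

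H4c1 and H4c2, which are neighbours in the gene order, changed less and at low signal. H4c1 went from 3.91, 3.78 and 3.64 to 4.64, 4.96 and 4.45 (log2 change 0.91, SE 0.17, adjusted p = 0.00838). The groups did not overlap, though the continuous values were again below the quartile. With low signals raised to the quartile the H4c1 change was 0.48. H4c2 went from 2.96, 2.58 and 2.66 to 4.03, 4.01 and 3.29 (log2 change 1.04, SE 0.22, adjusted p = 0.0134). All 6 of its signals were under the lower quartile of their array. H4c2 no longer passed when C2 (adjusted p = 0.0588), W1 (0.0720) or W2 (0.0655) was left out.

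The other H4 genes did not pass. H4c12 read 9.0, 8.92 and 8.81 with NTBC and 9.05, 9.28 and 9.0 after withdrawal, with overlapping groups. Its log2 change was 0.20 (SE 0.15, adjusted p = 0.459). H4c17 had 3.03, 3.36 and 3.13 against 3.72, 4.53 and 3.56 (log2 change 0.76, adjusted p = 0.0783), without overlap but at low signal. H4c14 had 0.17 (SE 0.29), with signals spread from 4.06 to 5.25 within the continuous group. All 7 H4 changes were positive.

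Among linker histones with a probe set of their own, only H1f2 passed the threshold. H1f4 has none and appears only on a shared probe set that also lists H2B genes (17291195, below). H1f2 encodes H1.2, one of the main somatic linker histones. Its signals were 7.70, 7.20 and 6.40 on the continuous arrays and 8.55, 8.63 and 7.89 after withdrawal. The lowest withdrawal array exceeded the highest continuous one by a small margin. The log2 change was 1.26 (SE 0.31, 2.39-fold, adjusted p = 0.0305). H1f2 no longer passed when C2 (adjusted p = 0.0813), C3 (0.0678), W1 (0.116) or W2 (0.121) was left out. H1f3 had overlapping groups, 4.47, 4.47 and 5.09 against 5.22, 5.49 and 4.86 (log2 change 0.51, adjusted p = 0.189). H1f1 and H1f5 had changes of -0.04 and 0.04, with all signals under the lower quartile. Of the linker genes outside S phase control, the replication-independent H1f10 read 5.85, 6.24 and 6.24 against 5.72, 5.67 and 6.06 (-0.29, adjusted p = 0.351). The oocyte gene H1f8 read 4.95, 5.12 and 5.77 against 4.82, 4.87 and 5.03 (-0.37, adjusted p = 0.322). The testis genes H1f6 and H1f7 had changes of -0.05 and -0.11, with all H1f6 signals under the lower quartile.

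H2B genes with their own probe set had one sizeable change that missed the threshold. H2bc12 read 4.12, 5.08 and 4.79 with NTBC and 5.84, 6.41 and 5.12 without it. The groups did not overlap but the spread was wide. The log2 change was 1.13 (SE 0.32, adjusted p = 0.0571), and over 14 alternatives the adjusted p ran from 0.0191 to 0.196, with 7 below 0.05. Without W3 the change was 1.46 and passed (0.0191). H2bc12 is the gene next to H4c9 in the RefSeq gene order.

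H2bc3 read 5.36, 5.42 and 5.07 against 5.46, 5.61 and 5.90 (log2 change 0.37, adjusted p = 0.221), without overlap. H2bc22 read 3.91, 4.73 and 4.37 against 3.71, 3.79 and 3.95 (-0.52, adjusted p = 0.156), and without C1 the change was -0.73 with adjusted p = 0.0272. H2bc18 read 4.38, 4.30 and 4.67 against 4.0, 4.14 and 4.26 (-0.32, adjusted p = 0.264). In H2bc18 the withdrawal arrays were all lower. H2bc21 read 4.94, 5.22 and 4.41 against 5.01, 5.08 and 4.67 (0.06, adjusted p = 0.888). H2bc9, H2bc14 and the testis gene H2bc1 had changes of 0.24, 0.06 and -0.22, all at signals under the lower quartile.

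H2A genes with their own probe set had changes of both signs and none passed. H2ac20 read 5.03, 5.04 and 4.88 with NTBC and 4.47, 4.44 and 4.60 after withdrawal (log2 change -0.48, adjusted p = 0.0641). The testis gene H2ac1 read 6.08, 6.30 and 6.15 against 5.70, 5.45 and 5.87 (-0.50, adjusted p = 0.0823). For both the withdrawal arrays lay wholly below. H2ac20 passed as lower in 3 of 14 alternatives (lowest adjusted p = 0.0314) and H2ac1 in 1 (0.0403, with array weights). H2ac10, the neighbour of H4c8, read 7.61, 7.93 and 8.05 against 8.04, 7.95 and 8.22 (0.21, adjusted p = 0.491), with overlap. H2ac21 read 4.09, 3.76 and 4.09 against 4.35, 4.18 and 4.27 (0.29, adjusted p = 0.298). H2ac12 read 2.37, 2.63 and 2.67 against 2.80, 2.99 and 2.64 (0.25, adjusted p = 0.379) and H2ac15 had a change of -0.09, both under the lower quartile throughout.

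**Figure D2:**
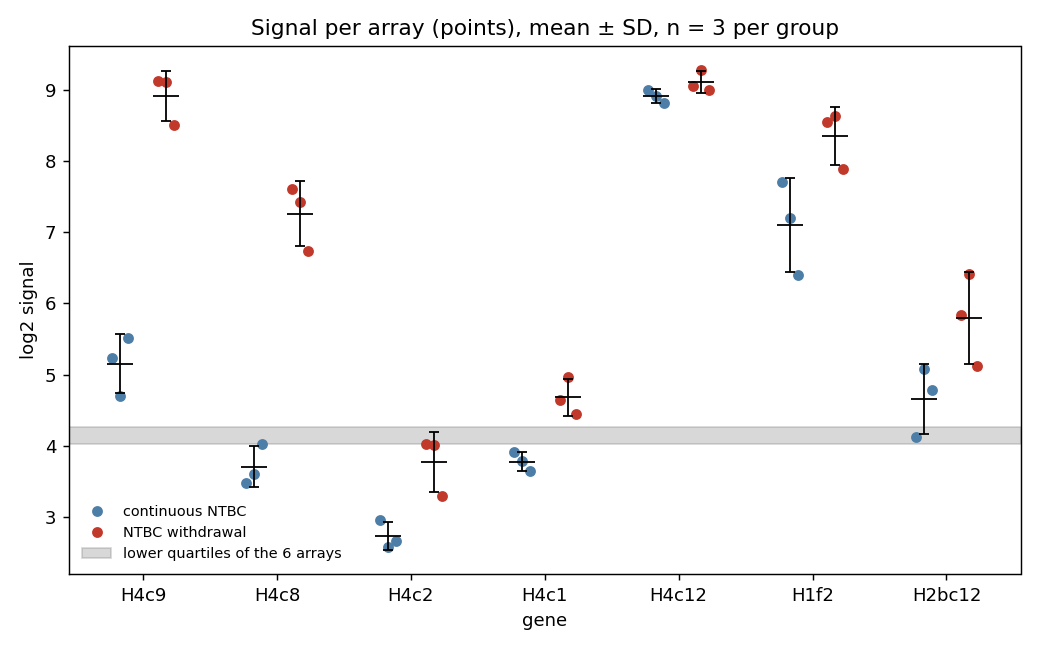
Log2 signal (y axis) on each array (points; blue continuous NTBC, red withdrawal) of 7 genes (x axis), with mean ± SD of 3 arrays and a grey band for the lower quartiles of the 6 arrays (4.03 to 4.26). H4c8 rose from below the band to above it, H4c9 and H1f2 lie above it in both groups, H4c2 lies below it in both groups, and the groups overlap for H4c12.

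The large Hist1 cluster held 21 of the 29 genes by their older names, and all 5 that rose were among them (median log2 change 0.24). The Hist2 cluster held 5 (H2ac20, H2ac21, H2bc18, H2bc21 and H4c14), none of which passed, with changes from -0.48 to 0.29. The difference between clusters was not tested. In each of the 5 genes that rose, W3 was the lowest of the withdrawal arrays, as it was for 71.4% of the 2139 probe sets that rose. Across the 6 arrays the deviations of these 5 genes from their group means correlated with r from -0.02 to 0.78 over the 10 pairs (median 0.67). These pairs share arrays and may share probes.

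Probe sets that list several genes can be named by class only. Of 38 such probe sets, 2 were left out of the classes (1 lists an H1 gene with H2B genes, 1 lists H1f10 with a predicted gene), and 3 pairs carried identical values and were counted once. In the 33 that remained, the genes of the rule are of 1 class. The 4 H4 sets of 13 symbols also list H4f16, and 2 H2B sets of 12 symbols also list H4bc24, symbols outside the rule. After withdrawal 19 of the 33 rose and none fell (57.6%, against 6.21% of all probe sets higher), with a median log2 change of 0.92. By class, 5 of 9 rose for H2A, 6 of 7 for H2B, 5 of 12 for H3 and 3 of 5 for H4. The medians were 0.79, 1.01, 0.54 and 2.07. At least a 2-fold rise was met by 13 of the 33, where 2.17% of all probe sets reached it. The probe sets overlap in the genes they list and are not independent of each other. Probe sets with the same list of symbols also differed: 4 that list the same 13 H4 genes had changes from 0.43 to 5.00, and 8 that list the same 8 H3 genes had changes from -0.29 to 3.40. A shared list therefore does not stand for a common value of all its genes.

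The H4 probe set 17285846, listing 13 genes, had the largest change among the histone probe sets. It read 3.84, 3.05 and 3.09 with NTBC and 8.68, 8.53 and 7.78 after withdrawal (log2 change 5.00, SE 0.27, 32.1-fold, adjusted p = 6.51e-06). With its continuous signals raised to the lower quartile of their arrays the fold was 17.5. Probe set 17291019, with the same 13 symbols, read 3.42, 3.85 and 3.66 against 6.62, 7.78 and 7.05 (log2 change 3.51, adjusted p = 4.04e-05). Probe set 17291208 read 5.06, 4.70 and 5.51 against 7.23, 7.42 and 6.84 (2.07, adjusted p = 3.74e-04). In each of the 3 the groups were far apart. Changes of 0.57 and 0.43 in the remaining H4 sets missed the threshold.

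For H3, probe set 17291183 (8 genes) read 3.78, 2.81 and 4.21 with NTBC and 7.27, 7.14 and 6.60 after withdrawal. The log2 change was 3.40 (SE 0.32, adjusted p = 1.49e-04), or 6.96-fold with low signals raised to the quartile. Probe set 17408015 (8 genes) read 4.67, 4.40 and 4.68 against 6.60, 7.07 and 5.86 (1.93, adjusted p = 0.00150). Probe set 17400555 (8 genes) read 7.95, 7.71 and 7.59 against 8.59, 8.82 and 8.61 (0.92, adjusted p = 0.00491). The other H3 sets that rose, 17291222 and 17285871, had every continuous signal under the lower quartile. With low signals raised to it their folds were 1.20 and 1.24. All rises in H3 came from sets that list 8 genes. The 4 sets that list another 4 H3 genes had changes from -0.35 to 0.39, and none passed. The lowest, 17285680, read 5.79, 6.15 and 6.27 against 5.78, 5.68 and 5.70 (adjusted p = 0.230), with every withdrawal array below every continuous one. The other sets that list these 4 genes lay under the lower quartile on every array, so their changes are uncertain. These 2 lists were not compared by a test.

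For H2B the rises were seen at high signal as well as low. Probe set 17285851 (3 genes) went from 11.61, 11.55 and 11.90 to 12.66, 12.63 and 12.72 (log2 change 0.98, SE 0.15, adjusted p = 0.00289). Probe set 17290997 (4 genes) went from 10.18, 10.13 and 10.39 to 11.32, 11.20 and 11.20 (1.01, adjusted p = 0.00203). In both, every withdrawal array lay above every continuous one. Probe set 17285746 lists the same 4 genes and went from 3.13, 3.17 and 3.30 to 6.08, 6.62 and 5.72 (2.94, adjusted p = 3.49e-05). Its fold was 7.68 as deposited and 3.83 with low signals raised to the quartile.

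Among H2A sets, 17400545 lists 3 genes of the Hist2 cluster and rose. It read 10.05, 10.05 and 10.13 with NTBC and 11.46, 11.36 and 11.41 without it (log2 change 1.33, SE 0.14, adjusted p = 2.61e-04). H2ac20, with a change of -0.48 on its own probe set, is among these 3 genes. The set that lists 12 H2A genes, 17285703, read 7.94, 8.00 and 7.96 against 8.80, 8.71 and 8.75 (0.79, adjusted p = 0.00538). The other H2A sets that rose, 17291204, 17291186 and 17285867, had most continuous signals under the lower quartile. With low signals raised to it their folds were 1.67, 1.10 and 1.62. The count of H2A sets that rose was 5, but 3 when C2 was left out and 2 when C3, W1 or W2 was. A further set, 17291195, lists H1f4 together with H2B genes and was left out of these counts. It read 5.78, 4.94 and 5.13 against 8.09, 8.27 and 7.73 (2.75, adjusted p = 7.87e-05).

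**Figure D3:**
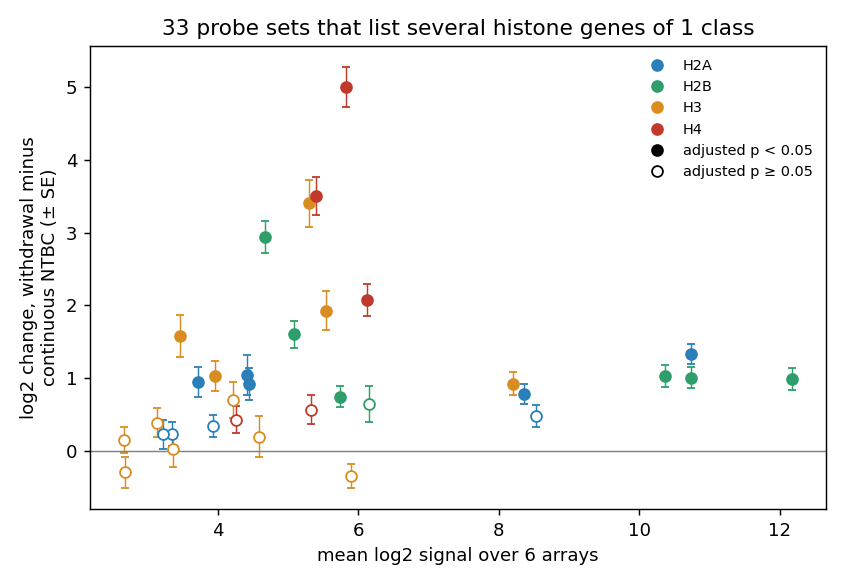
Log2 change with its standard error (y axis) against mean log2 signal over the 6 arrays (x axis) for the 33 distinct probe sets that list several histone genes of 1 class, coloured by class; filled points passed an adjusted p of 0.05. Changes above 3 belong to H4 and H3 sets, while the sets with signals above 10 (H2A and H2B) lie between 0.98 and 1.33.

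Histone synthesis is tied to DNA replication, and genes of that program were set beside the histones. Of 28 measured S phase and division genes, 3 rose and 1 fell (10.7% higher), where 6.21% of all probe sets rose and 3.20% fell, so these counts lay near the background. The list median log2 change was 0.01. The summed intensity, in which bright genes such as Pcna weigh most, was 1970 to 2065 with NTBC and 2323 to 2504 after withdrawal. With array weights 5 were higher, in a fit whose share over all probe sets is not given here. Pcna, the sliding clamp, rose from 7.51, 7.50 and 7.65 to 8.92, 8.87 and 8.74 (1.29, adjusted p = 4.02e-04). The helicase subunits Mcm6 and Mcm2 rose by 0.98 and 0.77, and Tk1, a thymidine kinase, fell by 0.86. Mcm6 and Mcm2 no longer passed when W1 or W2 was left out, which left 1 gene higher. Leaving out C2 ended the Mcm6 call, and leaving out C3 or W3 ended the Mcm2 call. Rrm1 had a change of 0.75 (adjusted p = 0.0524). The proliferation marker Mki67 had -0.11, the mitotic topoisomerase Top2a -0.22, the cyclin Ccna2 -0.07 and the ribonucleotide reductase subunit Rrm2 -0.02, all with overlapping groups. Mcm7 (0.44), Mcm3 (0.28) and Lig1 (0.24) did not pass, though every withdrawal array lay above every continuous one. Fen1 (-0.36) and Cdk2 (-0.21) did not pass either, with every withdrawal array below.

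Genes that transcribe and process histone mRNA passed in 2 of 16 cases, both upward (12.5%, where 6.21% of all probe sets rose), with a list median of 0.33. The count was 5 without C1 or with array weights, 4 with trend and robust, and 1 without C2, C3, W1 or W2. The shares over all probe sets in these fits are not given here. None fell, though 1 was lower after quantile normalization. Hinfp, a factor that binds H4 promoters, read 6.32, 5.68 and 5.12 with NTBC and 6.86, 7.02 and 6.64 after withdrawal (1.13, adjusted p = 0.0238). Hinfp no longer passed when C2, C3, W1 or W2 was left out (highest adjusted p = 0.0977). Ncbp1, of the cap-binding complex, rose by 0.87 (adjusted p = 0.00473). The stem-loop binder Slbp had 0.27 (adjusted p = 0.296), the coactivator Npat 0.39 (0.251) and the cleavage factors Cpsf2 and Sympk 0.60 (0.0596) and 0.48 (0.0910). Srrt, which binds the cap-binding complex, had 0.56 (0.0704). Lsm10 and Mif4gd, also of this list, had -0.44 (0.0937) and -0.35 (0.210), with every withdrawal array below every continuous one.

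Of 5 genes that degrade histone mRNA, 2 rose (6.21% of all probe sets did): Eri1, an exonuclease that acts on the stem-loop (0.64, adjusted p = 0.0158), and Tut4, a uridylyltransferase (0.76, 0.0143). With C2 or W1 left out neither passed, and with W2 left out Eri1 did not. Upf1, Lsm1 and Tut7 had 0.43, 0.19 and -0.23.

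Of 21 histone chaperones and deposition factors, 4 rose (19.0%, where 6.21% of all probe sets did) and none fell, though 1 was lower after quantile normalization and 1 with trend and robust. The list median was 0.15. They were Rbbp7 (1.13, adjusted p = 0.00170), a histone-binding subunit of several complexes, Asf1a (0.95, 0.00575), an H3-H4 chaperone, Hat1 (0.71, 0.0219), which acetylates new H4, and Hira (0.60, 0.0428), which deposits H3 outside S phase. Hat1 and Hira no longer passed after quantile normalization or when C2, W1, W2 or W3 was left out, and Hira also when C3 was. Nasp, which holds free H3-H4, had 0.33 (adjusted p = 0.201), and the replication-coupled factors Chaf1a, Chaf1b and Asf1b had 0.35, -0.03 and -0.04. Rbbp4, a paralogue of Rbbp7 and a subunit of the same CAF-1 complex as Chaf1a and Chaf1b, read 9.07, 8.81 and 9.03 against 8.55, 8.60 and 8.29 (-0.49, adjusted p = 0.0825), with every withdrawal array lower.

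Of 7 measured histone variants, 2 rose (28.6%, where 6.21% of all probe sets did), with a median of -0.14. H2aj read 6.20, 5.47 and 5.85 with NTBC and 7.22, 7.09 and 6.99 after withdrawal (1.26, adjusted p = 0.00281). H2ax, which is phosphorylated at DNA breaks, read 7.01, 6.89 and 7.53 against 8.08, 8.09 and 7.85 (0.86, adjusted p = 0.0176). H2ax no longer passed after quantile normalization or when C2, W1 or W2 was left out (highest adjusted p = 0.0842). H2az1, H2az2, Macroh2a1, Macroh2a2 and Cenpa had changes from -0.42 to 0.11 and did not pass.

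**Figure D4:**
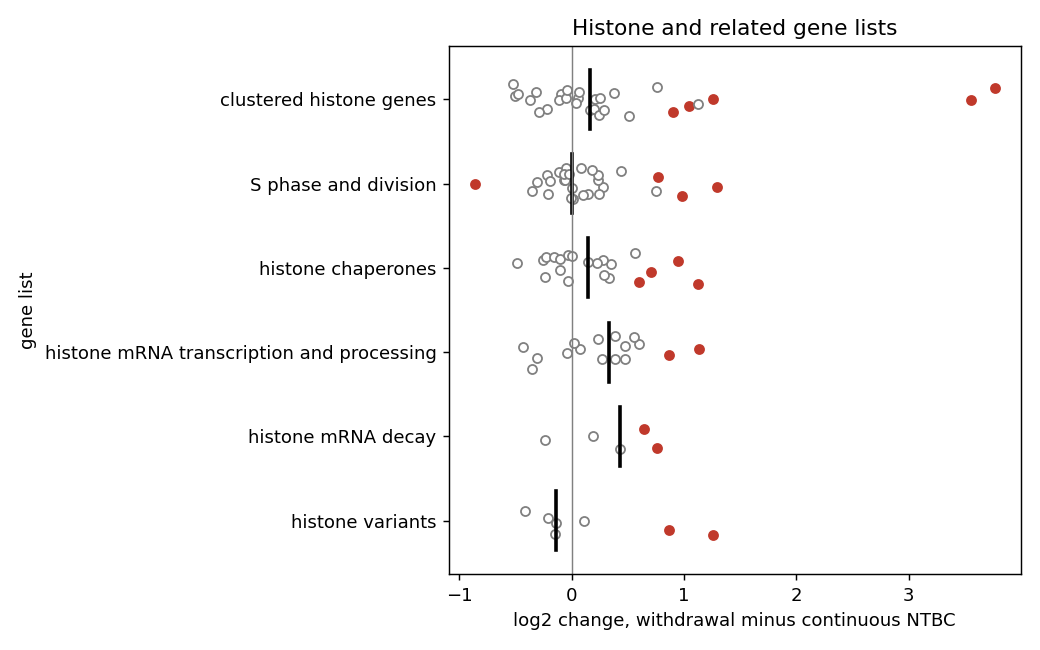
Log2 change (withdrawal minus continuous NTBC, x axis) of each gene in the 29 histone genes of the rule and 5 related lists (y axis). By their older names 3 of the 29 lie outside the Hist1 and Hist2 clusters. Filled points passed an adjusted p of 0.05 and black bars are medians. The list medians lie between -0.14 and 0.43, and the 2 points above 3 are H4c8 and H4c9.

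Markers of other liver cells were read in the same fit. None of 7 macrophage, 6 T cell, 4 B cell, 5 neutrophil, 4 cholangiocyte or 5 stellate cell markers passed. In other fits 1 neutrophil marker was lower without dim probe sets or with the replicate block, array weights or 1-symbol probe sets only. Quantile normalization gave 1 macrophage marker lower, and leaving out C1 gave 1 B cell and 1 cholangiocyte marker lower. With array weights 1 cholangiocyte marker was higher, 1 was lower, and 1 stellate cell marker was higher. Of 5 sinusoidal endothelial markers 2 rose, Clec4g (0.81) and Lyve1 (1.07), with a list median of 0.36 and a summed intensity of 952 to 1209 with NTBC and 1595 to 1670 after withdrawal (6.21% of all probe sets rose). The endothelial count was 1 after quantile normalization or when C2, W1, W2 or W3 was left out. Of 2 measured erythroid precursor markers Klf1 fell (-0.63), where 3.20% of all probe sets fell. Neither passed after quantile normalization, median centring or the replicate block, or when C1, C2, C3, W1 or W2 was left out. Of 8 hepatocyte markers Cps1 fell (-1.08), where 3.20% of all probe sets fell, and with trend and robust 2 were lower. The other 7 did not pass in the main fit, and the list median was -0.06. The summed hepatocyte intensity was 68394 to 73112 with NTBC and 60556 to 66067 after withdrawal. The part of these shifts in the histone signals was not tested.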

How the data were processed

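RNA of 6 liver samples, 3 per group, was measured on whole-transcript arrays from 100 ng of total RNA, per the labels' protocols. The authors deposited one normalized intensity per probe set on a linear scale, made with Transcriptome Analysis Console per the submitters' processing notes. Its version, background correction and normalization are not given in the sources used here. The number of arrays limits the precision. A linear model per probe set (limma 3.58.1, R 4.3.3) was run on log2 intensities of all 34472 probe sets (withdrawal minus continuous, Benjamini-Hochberg over all probe sets), tested on simulated data. Genes were named from the platform annotation (23521 probe sets with 1 symbol, 1814 with several, 9137 unnamed), and only probe sets with 1 symbol were used to name genes. For H2ac21, with 2 probe sets, the brighter was used. All 29 genes matched the RefSeq table (GRCm38.p6) and 27 its promoters.

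Members and lists were chosen with earlier results of these data known. Named were genes past the threshold, and per class the 3 of highest signal and the 2 largest changes each way. Up to 5 per related list were named by p (of the marker lists, those past the threshold and Alb). Slbp, Npat, Lsm10, Mif4gd, Nasp, Chaf1a, Chaf1b, Asf1b, H2az1, H2az2 and the shared probe sets were chosen after their values were seen. So were Mki67, Top2a, Ccna2, Rrm2, Mcm7, Mcm3, Lig1, Fen1 and Cdk2. Signals under an array's lower quartile were also raised to it. Cell type marker lists, 9 in number, were hepatocyte, macrophage, T cell, B cell, neutrophil, erythroid precursor, sinusoidal endothelium, cholangiocyte and stellate cell.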

Additional observations from a re-analysis of the deposited data

How the results depend on the processing

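Of the 29 genes, 3 to 6 were higher when 1 array was left out (3 when C2, W1 or W2 was the one left out) and 0 to 1 lower. H4c9, H4c8 and H4c1 passed in all 14 alternative fits, H4c2 in 10 of 13 and H1f2 in 10 of 14. Counting shared probe sets as members gave 20 higher (median 0.37) by the rule as written and 24 (median 0.45) with every shared set of 1 class, the latter chosen after the annotation was seen. The lower count was 1 without dim probe sets, 1 with 1-symbol probe sets only and 3 with array weights. For H2A the lower count was 1, 1 and 2 in these fits. Median centring gave medians of 0.27 for the 29 genes and 0.16 for H2A, and without dim probe sets the H2A median was -0.48. For H2B 1 gene was higher with median centring, without dim probe sets, with the replicate block, array weights, trend and robust or 1-symbol probe sets only, and 1 was lower with array weights. With 1 array left out H1 had 0 to 1 higher, H2B 0 to 1 higher and 0 to 1 lower, H2A a median of -0.030 to 0.13, and shared H2A sets 2 to 5 higher. A 2-fold threshold left 2 shared H2A sets. Without dim probe sets 3 shared H3 sets were higher, with a median of 0.81. Raising low signals to the quartile lowered H4c1 to 0.48 and turned H4c2 to -0.11, since all H4c2 signals lie below it. H2bc21 ran from -0.16 to 0.24 with 1 array left out. A fit may pass more or fewer probe sets as a whole, and apart from the replicate block these totals are not given here. A count that shifts between fits therefore need not be particular to the histones. The cause of these shifts was not tested.

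Replicate numbers do not pair the samples by the labels. Deviations of same-numbered arrays correlated at 0.16, -0.12 and 0.22, and 3 of 6 arrays correlated best with their own number. With the replicate block 7 genes and 20 shared sets were higher, and 3298 probe sets passed in place of 3241. The table gives no detection flags, and 9 of the 29 genes were under the lower quartile on every array.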

Other observations

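Further histone genes have current symbols that fall outside the rule. H2aw, the H2A gene of the small Hist3 cluster, read 4.33, 3.58 and 4.44 with NTBC and 4.88, 4.72 and 4.78 after withdrawal, with groups that did not overlap (log2 change 0.68, SE 0.22, limma adjusted p = 0.0861). H4f16, an H4 gene that lies alone, had 2 probe sets that differed in sign. One read 5.35, 5.30 and 5.49 against 5.62, 5.46 and 5.66 (0.20, adjusted p = 0.444) and the other 6.92, 7.35 and 7.03 against 6.85, 7.26 and 6.89 (-0.10, adjusted p = 0.778). The H2B pseudogene H2bu1-ps read 2.89, 3.18 and 2.81 against 2.74, 2.88 and 2.58 (-0.23, adjusted p = 0.438), with overlapping groups and all signals under the lower quartile of their arrays.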
